A study of Mus musculus with 12 samples.

Results

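Excitatory neurons of the neocortex are glutamatergic projection neurons arranged in layers, and each layer is marked by its own combination of transcription factors, receptors and synaptic proteins. The genes described here are a set of 38 names known to mark excitatory neurons or single layers of neocortex, taken by name. Of these names, 37 matched 1 of the 55536 genes in the deposited count tables, 35 of them by the gene name of the GENCODE vM21 annotation. *Ctgf* was matched as *Ccn2* and *Calb3* as *S100g* through their RefSeq synonyms, and *Nr4a4* matched no gene. The set was followed in RNA-Seq of cerebral cortex and cerebellum from 1-month-old WT and *Snx14*-KO mice, with 3 libraries per tissue and genotype and 12 in all. *Snx14*-KO mice carry a small frameshift deletion in both copies of *Snx14*, made by CRISPR/Cas9 in C57BL/6J embryos, in every cell of the body, and all of them descend from 1 allele. The WT mice carry no engineered allele, and the labels name no treatment. The RNA came from dissected tissue with all its cell types, so fewer cells of a type and less RNA per cell cannot be told apart.

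Layers 2 and 3 (the upper layers) hold neurons that project within and between the cortical hemispheres and express *Cux1* and *Cux2*. Layer 4 receives thalamic input and expresses *Rorb*. Layer 5 projects to the brainstem, spinal cord and striatum and depends on the transcription factors FEZF2 and BCL11B. Layer 6 projects to the thalamus under the control of TBR1, and the thin layer 6b below it expresses *Ccn2* and *Cplx3*. Genes such as *Nrgn*, *Camk2a* and *Hpca*, which encode calcium-handling proteins of dendrites and synapses, are used by excitatory neurons of several layers and also by other forebrain neurons. Many of these genes are not private to cortex, because granule cells, Purkinje cells and other neurons of the hindbrain use some of the same factors.

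Each library held between 16672589 and 19887427 read pairs counted on genes, and levels are given below as CPM, the counts scaled to a common library size with TMM factors from all 12 libraries. *Snx14* stood at 53.5 to 59.9 CPM in WT and 7.65 to 8.47 CPM in *Snx14*-KO cortices, and at 63.8 to 66.4 against 10.4 to 11.2 CPM in the cerebella, so every library matched its genotype label. *Snx14*-KO cerebella 1 and 3 stood apart from the other 4 cerebella. In them *Tcf7l2*, a transcription factor of thalamus and midbrain, was at 62.5 and 64.1 CPM against 4.68 to 8.10 in the others. *Slc17a6*, the vesicular glutamate transporter of brainstem and thalamus, was at 103 and 105 against 23.3 to 30.3 CPM. Both genes belong to a list of 5 thalamus genes whose summed level was 291 and 271 CPM in these 2 libraries and 151 to 174 in the other 4. The other 3 genes of the list did not separate the libraries, with *Prkcd* at 98.4 to 134 CPM, *Lef1* at 2.37 to 3.88 and *Gbx2* near 0. Of 13 midbrain genes, which were listed after values had been seen, *Tfap2d*, *Pou4f1*, *Pou4f2*, *Gata3*, *Tal1*, *Sox14* and *Pax7* were higher in *Snx14*-KO cerebella 1 and 3 than in the other 4, while *Otx2*, *Barhl2*, *Th*, *Slc6a3*, *Chat* and *Phox2a* were not. *Tfap2d* was at 5.83 and 6.55 CPM there and at most 0.0579 elsewhere in cerebellum. The summed level of the midbrain list was 56.4 and 57.4 CPM in these 2 libraries and 43.6 to 54.7 in the other 4. The main results of members in cerebellum are therefore given with and without these 2 libraries. Without them the *Snx14*-KO group is 1 library, replicate 2, which is assumed to vary like the other groups, so these values describe that library and a lost call says little.

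Sequence before the RefSeq start is shown for 4 members that differ in their cerebellar pattern. *Nrgn* and *Rasgrf2* were high in *Snx14*-KO cerebella 1 and 3, and *Tbr1* and *Fezf2* were near 0 in every cerebellum. Each window is the 250 bases before the RefSeq start of the gene in GRCm38.p6, 5′ to 3′ on the strand of the gene, with capitals for the E-box CAGATG and the GC box GGGCGG on either strand. The windows lie at chr9:37552746-37552995 (minus strand) for *Nrgn*, chr13:92131829-92132078 (minus strand) for *Rasgrf2*, chr2:61804203-61804452 (plus strand) for *Tbr1* and chr14:12345866-12346115 (minus strand) for *Fezf2*. In the GENCODE annotation used for the counts, *Tbr1* spans 61802930 to 61814114 and *Fezf2* 12342094 to 12348189, so both windows lie inside the annotated gene, downstream of its outermost start, and the window of *Nrgn* overlaps its gene in part.
Nrgn: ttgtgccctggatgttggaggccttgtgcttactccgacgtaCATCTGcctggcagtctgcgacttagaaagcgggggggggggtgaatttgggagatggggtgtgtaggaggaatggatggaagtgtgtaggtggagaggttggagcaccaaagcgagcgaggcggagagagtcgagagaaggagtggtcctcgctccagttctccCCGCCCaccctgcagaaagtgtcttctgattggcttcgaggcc
Rasgrf2: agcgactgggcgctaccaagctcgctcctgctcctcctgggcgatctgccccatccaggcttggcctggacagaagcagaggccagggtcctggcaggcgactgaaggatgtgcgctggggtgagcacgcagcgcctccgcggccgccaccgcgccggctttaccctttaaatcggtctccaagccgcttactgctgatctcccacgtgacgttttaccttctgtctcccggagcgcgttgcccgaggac
Tbr1: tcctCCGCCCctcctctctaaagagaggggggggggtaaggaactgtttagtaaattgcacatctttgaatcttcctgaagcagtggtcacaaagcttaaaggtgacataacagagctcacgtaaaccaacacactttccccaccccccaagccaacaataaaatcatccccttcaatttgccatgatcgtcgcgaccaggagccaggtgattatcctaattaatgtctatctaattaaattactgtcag
Fezf2: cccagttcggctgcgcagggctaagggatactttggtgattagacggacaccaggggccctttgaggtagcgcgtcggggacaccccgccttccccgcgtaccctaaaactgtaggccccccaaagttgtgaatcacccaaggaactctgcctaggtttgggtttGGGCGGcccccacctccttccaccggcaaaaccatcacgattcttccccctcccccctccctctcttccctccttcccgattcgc
Of the 37 matched members, 28 had such a window. CAGATG, an E-box form bound by neuronal basic helix-loop-helix factors, was in 1 of the 28 windows, that of *Nrgn*, and in 14.5% of all 32817 windows. GGGCGG was in 13 of 28 windows and in 32.7% of all. CAGCTG, another E-box form, was in 2 of 28 and 13% of all, TATAAA in 3 of 28 and 12.4% of all, and the cAMP response element TGACGTCA in 1 of 28 and 1.55% of all. These are matches of letters only, on both strands and with no overlap counted between motifs. The sequences of *Nrgn*, *Tbr1* and *Fezf2* each hold a GC box, and that of *Rasgrf2* holds neither of the capitalised motifs.

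Across the 12 libraries, most of the set was far higher in cortex than in cerebellum, in both genotypes. The map of all members by library shows the cortex block bright and the cerebellum block dark for most rows, with *Cux1*, *Pcdh20* and *Etv6* close to even and *S100g* dark throughout. *S100g*, a calcium-binding protein of intestine and kidney that stands here for the listed name *Calb3*, had 3 read pairs in all 12 libraries. It was not tested by edgeR or DESeq2 in any comparison with all libraries and the filter on.

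**Figure D1:**
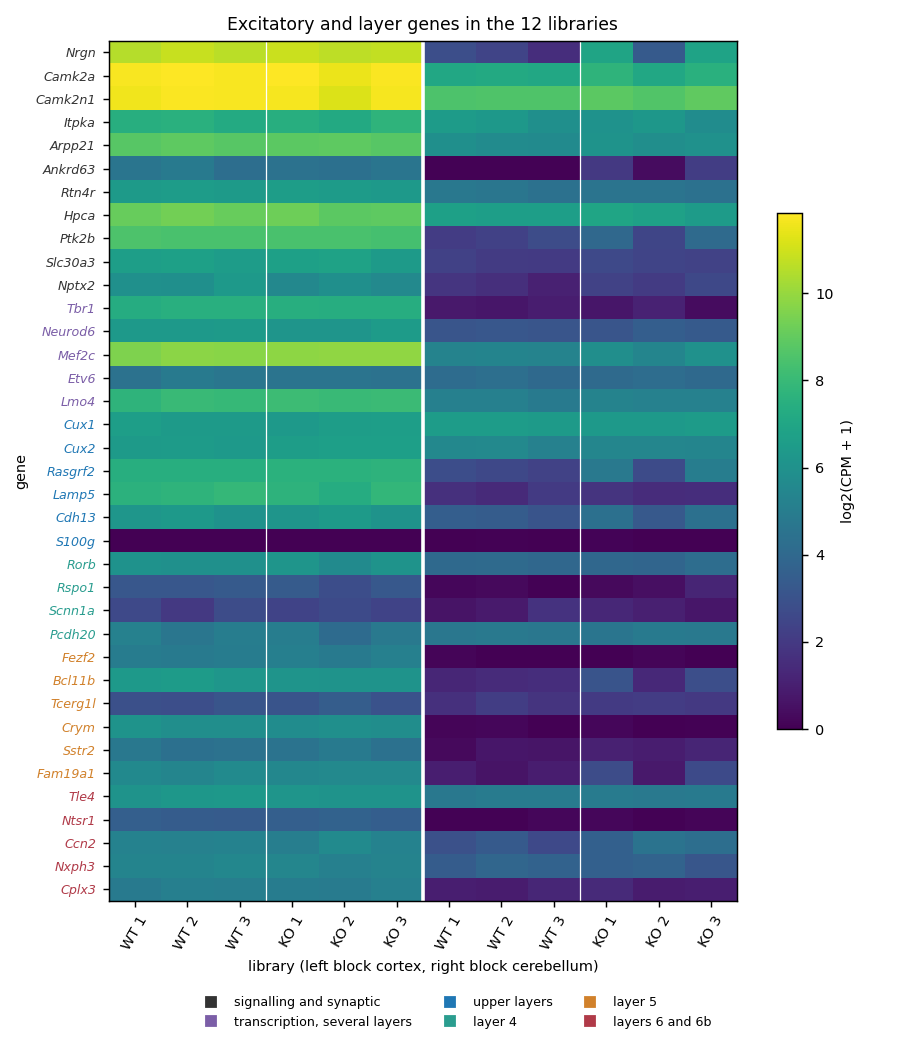
Level of each of the 37 matched genes (rows, coloured by role) in each of the 12 libraries (columns), as log2(CPM + 1). Cortex libraries are in the left block and cerebellum libraries in the right block, and *Nrgn*, *Rasgrf2* and *Bcl11b* are brighter in *Snx14*-KO cerebella 1 and 3 than in the other 4 cerebella.

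In WT mice, 33 of 36 tested members were higher in cortex than in cerebellum past both thresholds (adjusted p under 0.05 and a log2 fold change beyond 0.5 in the quasi-likelihood test of edgeR, adjusted by Benjamini-Hochberg), and 0 were lower. Of all 18543 genes tested, 40.4% passed in either direction and 21.4% were higher in cortex. The median log2 fold change of the tested members was 3.90, against -0.023 over all genes tested. The layer 5 genes had the largest group median, 5.69 over 6 genes, and the 4 layer 4 genes the smallest, 1.93. In between were the 11 signalling genes at 4.67, the 5 genes of transcription in several layers at 3.40, 5 upper layer genes at 2.96 and the 5 genes of layers 6 and 6b at 2.38. These group medians are descriptions, and the differences between groups were not tested.

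The members with the largest ratio of the tissues were *Fezf2*, *Crym*, *Nrgn*, *Ankrd63* and *Tbr1*. *Fezf2*, which encodes the zinc finger factor that specifies subcerebral projection neurons, was at 30.1, 27.8 and 30.2 CPM in WT cortices 1, 2 and 3. In WT cerebella it had 2, 0 and 0 read pairs, and the summed counts, scaled for library size, gave a ratio of 794 (95% interval 219.5 to 6562, exact, counting error only). *Crym*, a thyroid hormone-binding protein of deep layer neurons, was at 66.2, 56.5 and 57.8 CPM in WT cortices and had 2, 3 and 0 read pairs in WT cerebella, a ratio of 651 (95% interval 279 to 2007). *Ankrd63* was at 23.1, 27.2 and 18.5 CPM in WT cortices and had 1 read pair in each WT cerebellum, a ratio of 415 (95% interval 142 to 2015). These 3 genes are thus read from very few cerebellar counts, and their intervals are wide.

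*Nrgn*, which encodes neurogranin, a calmodulin-binding protein of dendritic spines, was at 1485, 1829.7 and 1590.2 CPM in WT cortices and 6.17, 4.34 and 1.97 in WT cerebella. Its log2 fold change was 8.62 (SE 0.292, adjusted p = 2.53e-09 by edgeR). *Tbr1* was at 159.6, 176 and 174 CPM in WT cortices and 0.778, 0.637 and 0.958 in WT cerebella, with a log2 fold change of 7.72 (SE 0.120, adjusted p = 4.25e-11 by edgeR). Both tissues were fully separated for all 5 of these genes. *Ntsr1*, the neurotensin receptor of layer 6 corticothalamic neurons, followed the same pattern, with 9.74 to 11.2 CPM in WT cortices and 5 read pairs summed over the WT cerebella. *Lamp5*, a membrane protein of upper layer neurons, had a log2 fold change of 6.53, and *Ptk2b*, a calcium-activated tyrosine kinase, one of 6.35.

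At the other end were *Cux1*, *Pcdh20*, *Etv6*, *Cux2* and *Itpka*, which cerebellum also expresses. *Cux1*, a homeobox factor of upper layer neurons, was at 97.7, 86.4 and 87.3 CPM in WT cortices and 91.8, 92.7 and 87.2 in WT cerebella, and its log2 fold change of -0.0087 (95% interval -0.16 to 0.14) changed sign under other settings, DESeq2 among them. *Pcdh20*, a protocadherin of layer 4, was at 35.7, 24.3 and 32.0 and 24.6, 26.9 and 24.6 CPM, with overlap of the tissues (log2 fold change 0.27, 95% interval -0.02 to 0.56). *Etv6*, a broadly used repressor of transcription, was at 20.98, 28.9 and 24.1 and 17.4, 19.4 and 15.4 CPM, a log2 fold change of 0.50 (SE 0.133) just under the fold threshold. None of these 3 genes passed both thresholds by edgeR. The tissues did not overlap for *Etv6*, and DESeq2 called it (log2 fold change 0.51, adjusted p = 0.00272), so that DESeq2 called 34 members as higher in cortex, where it called 16.8% of its genes as higher.

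*Cux2*, the close relative of *Cux1* that is used to mark upper layers, was at 85.8, 89.3 and 83.8 CPM in WT cortices and 46.0, 46.4 and 36.0 in WT cerebella (log2 fold change 1.01, SE 0.0931, adjusted p = 5.54e-06 by edgeR). *Itpka*, an inositol trisphosphate kinase of dendritic spines, was at 169, 183 and 153 against 89.4, 79.5 and 59.2 CPM (log2 fold change 1.14, SE 0.129, adjusted p = 2.69e-05 by edgeR). Both were higher in every WT cortex than in any WT cerebellum, but by much less than the median member. Of *Ccn2*, a matricellular growth factor that marks layer 6b, 23.2% of exon bases lie over *Gm15270* on the opposite strand. Reads were counted without regard to strand, so both genes cannot be told apart there. No other member shared over 3.33% of its exon bases with another gene.

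Levels of different genes were compared per length, as CPM per kb of exon. The 5 highest members in WT cortex were *Nrgn* at 1125 ± 122 CPM per kb (SD, n = 3), *Camk2n1* at 757 ± 55.4, *Camk2a* at 472 ± 18.7, *Hpca* at 197 ± 20.4 and *Itpka* at 92.7 ± 8.41. All 5 encode proteins of calcium signalling, among them the alpha subunit of CaM kinase II (*Camk2a*), its inhibitor (*Camk2n1*) and the calcium sensor hippocalcin (*Hpca*). The lowest tested members on the same scale were *Ntsr1* at 2.64 ± 0.198, *Tcerg1l* at 1.76 ± 0.194 and the sodium channel subunit *Scnn1a*, a layer 4 marker, at 1.11 ± 0.352 CPM per kb. For each of the 5 highest genes, all 3 WT cortices lay above those of the gene next in order, which after *Itpka* was *Lamp5* at 72.8 ± 7.73 CPM per kb.

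**Figure D2:**
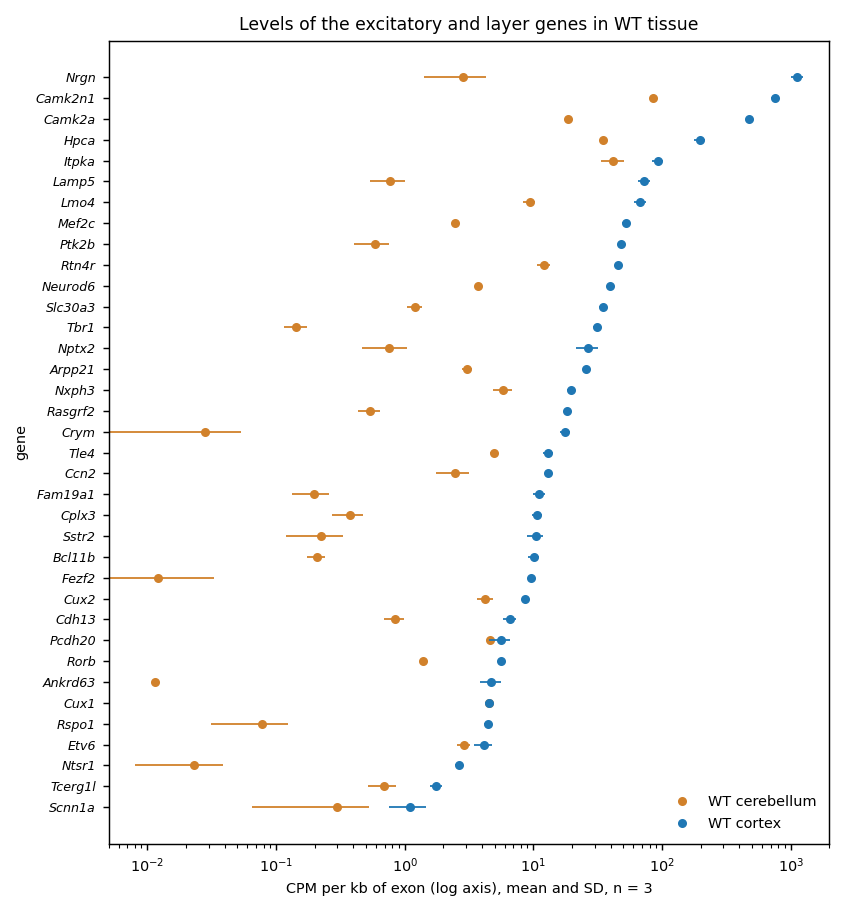
Mean level of 36 members in WT cortex (blue) and WT cerebellum (orange) in CPM per kb of exon on a log axis, with bars of 1 SD over 3 mice (bars of *Crym* and *Fezf2* in cerebellum run to the left edge because the SD exceeds or nears the mean). The points lie far apart for most genes and together for *Cux1* and *Pcdh20*.

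In *Snx14*-KO mice the tissues were compared in the same way, and 33 of 36 members were again higher in cortex past both thresholds, with 0 lower, against 37.9% of all genes called and 19.6% higher. *Cux1*, *Pcdh20* and *Etv6* were the 3 that did not pass, as in WT. The median log2 fold change was 3.13, and it was 3.51 without *Snx14*-KO cerebella 1 and 3. *Fezf2*, *Crym* and *Tbr1* had 0 to 2, 0 to 3 and 6 to 22 read pairs in the *Snx14*-KO cerebella, close to the 0 to 2, 0 to 3 and 11 to 18 read pairs in the WT cerebella.

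In cerebral cortex, none of the 36 tested members differed between *Snx14*-KO and WT mice past the thresholds, by edgeR or by DESeq2. Of all 18255 genes, 0.00548% were called by edgeR, which is *Snx14* itself, and DESeq2 called 0.0530% of the genes it tested. Among the members, 17 had a positive and 19 a negative log2 fold change, and the median was -0.0093 against 8.2e-05 over all genes. The smallest adjusted p of a member was 0.990 by edgeR's quasi-likelihood test. For 32 of the 36 members the 95% interval of the log2 fold change lay wholly between -0.5 and 0.5, and the exceptions were *Nptx2*, *Pcdh20*, *Scnn1a* and *Tcerg1l*.

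By role, the 11 signalling genes had a median log2 fold change of -0.061 (range -0.42 to 0.10) and the 5 genes of transcription in several layers one of -0.017 (range -0.17 to 0.19). The 5 tested upper layer genes had a median of 0.030 (range -0.11 to 0.23) and the 4 layer 4 genes one of -0.057 (range -0.30 to 0.039). The median was 0.025 over the 6 layer 5 genes (range -0.28 to 0.28) and -0.020 over the 5 genes of layers 6 and 6b (range -0.11 to 0.13). No role group had a median more than 0.061 from 0.

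**Figure D3:**
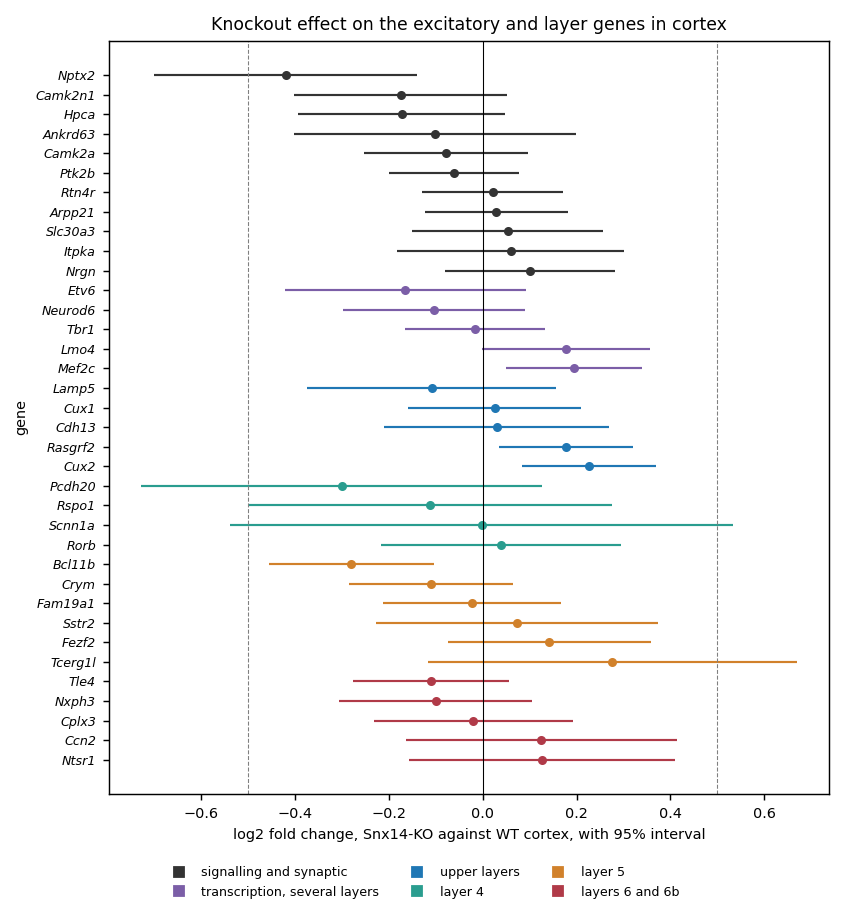
Log2 fold change of *Snx14*-KO against WT cortex for the 36 tested members (points) with 95% intervals (lines), grouped and coloured by role. The dashed lines mark the fold threshold of 0.5, no point reaches them, and the intervals of *Nptx2*, *Pcdh20*, *Scnn1a* and *Tcerg1l* cross one.

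At an unadjusted p under 0.05 there were 5 members, 3 with higher and 2 with lower values in *Snx14*-KO cortices, which is 5 of 36 where 4.50% of all genes met that limit, 2.24% as higher and 2.26% as lower. *Cux2* (ENSMUSG00000042589.18, chromosome 5 from 121856366 to 122050102, GRCm38) was at 85.8, 89.3 and 83.8 CPM in WT and 96.6, 104 and 102 in *Snx14*-KO cortices 1, 2 and 3. The groups did not overlap, and the log2 fold change was 0.23 (SE 0.0652, adjusted p = 0.99 by edgeR). *Rasgrf2* (ENSMUSG00000021708.17, chromosome 13 from 91880400 to 92131656), a Ras exchange factor of layer 2 and 3 neurons, was at 169.9, 171 and 169.7 CPM in WT and 186, 188 and 202 in *Snx14*-KO cortices. Its WT values lay within 1 CPM of each other and below all *Snx14*-KO values, and the log2 fold change was 0.18 (SE 0.0654, adjusted p = 0.996 by edgeR).

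*Mef2c* (ENSMUSG00000005583.16, chromosome 13 from 83504034 to 83667080), an activity-regulated factor of excitatory and some inhibitory neurons, was at 754, 875 and 851 CPM in WT and 919, 954 and 958 in *Snx14*-KO cortices. These groups also did not overlap, with WT cortex 1 the lowest, and the log2 fold change was 0.19 (SE 0.0665, adjusted p = 0.996 by edgeR). *Bcl11b* (ENSMUSG00000048251.15, chromosome 12 from 107910403 to 108003602), the layer 5 factor CTIP2 that is also a gene of striatal projection neurons, was at 82.3, 90.1 and 72.8 CPM in WT and 68.8, 66.2 and 66.5 in *Snx14*-KO cortices, with a log2 fold change of -0.28 (SE 0.0805, adjusted p = 0.99 by edgeR). Its highest value was in WT cortex 2, which was also the library with the highest level of striatal genes. The summed level of 10 striatum genes was 668 CPM in WT cortex 2, 297 and 331 in the other WT cortices and 252 to 312 in the *Snx14*-KO cortices, and all 10 genes had a negative log2 fold change (median -0.62). Their part in the *Bcl11b* difference was not tested. Leaving out single libraries, the value for *Bcl11b* ran from -0.36 to -0.20.

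*Nptx2* (ENSMUSG00000059991.7, chromosome 5 from 144545902 to 144557478), an activity-induced secreted pentraxin of excitatory synapses, was at 61.4, 58.7 and 81.8 CPM in WT and 45.6, 58.3 and 46.4 in *Snx14*-KO cortices. The log2 fold change was -0.42 (SE 0.128, adjusted p = 0.996 by edgeR), and the groups came within 1 CPM of each other, at WT cortex 2 and *Snx14*-KO cortex 2. The summed level of 9 immediate early genes, which neuronal activity also induces, was 1482, 535 and 1064 CPM in the WT and 299, 1251 and 882 CPM in the *Snx14*-KO cortices. All 9 had a negative log2 fold change (median -0.46), and their part in the *Nptx2* difference was not tested. Without single libraries the value for *Nptx2* ran from -0.54 to -0.26.

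The largest log2 fold changes outside these 5 members belonged to *Tcerg1l* and *Pcdh20*, whose groups overlapped. *Tcerg1l* was at 6.48, 6.23 and 7.63 CPM in WT and 7.41, 10.2 and 6.88 in *Snx14*-KO cortices, so that *Snx14*-KO cortex 2 alone stood above the others (log2 fold change 0.28, SE 0.180, adjusted p = 0.996 by edgeR). *Pcdh20* was at 35.7, 24.3 and 32.0 CPM in WT and 31.2, 16.8 and 26.5 in *Snx14*-KO cortices, with *Snx14*-KO cortex 2 the lowest (log2 fold change -0.30, SE 0.195, adjusted p = 0.996 by edgeR). The same library held the highest *Ccn2* (50.6 CPM against 32.4 to 37.5 in the other cortices) and the lowest *Camk2n1*, *Camk2a*, *Rorb* and *Rspo1*. In it the summed level of 10 meningeal fibroblast genes was 372 CPM against 97.7 to 141 in the other 5 cortices, and that of 10 oligodendrocyte genes 5755 against 7484 to 8535. Without *Snx14*-KO cortex 2, the log2 fold change was 0.082 for *Tcerg1l* and -0.08 for *Pcdh20*.

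**Figure D4:**
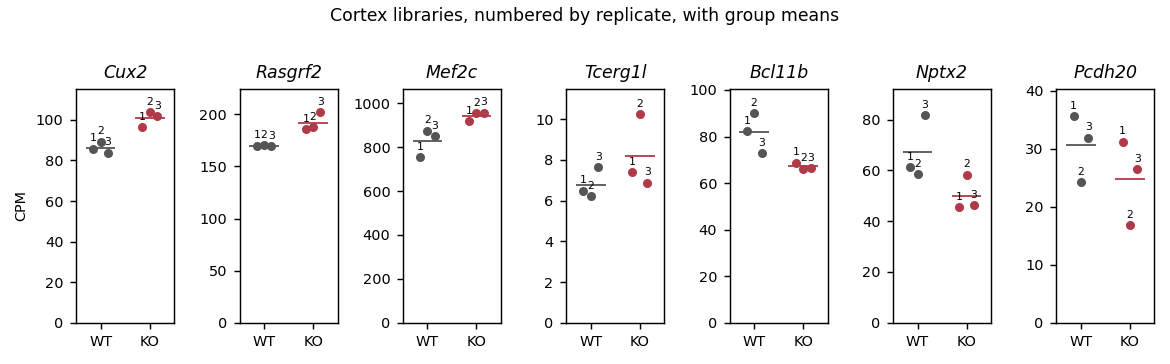
CPM of 7 members in the WT (grey) and *Snx14*-KO (red) cortices, each point 1 mouse with its replicate number and each line the group mean, on axes from 0. The groups are apart for *Cux2*, *Rasgrf2*, *Mef2c*, *Bcl11b* and, narrowly, *Nptx2*, and overlap for *Tcerg1l* and *Pcdh20*.

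In total the cortex groups did not overlap for 6 of 36 members, 3 higher and 3 lower in *Snx14*-KO, while this held for 9.32% of all genes, 4.29% as higher and 5.02% as lower. The sixth was *Ptk2b*, at 370.1, 351 and 349.8 CPM in WT and 349.6, 348 and 325 in *Snx14*-KO cortices (log2 fold change -0.061, SE 0.0634). The 5 most abundant members per length showed overlapping groups. *Nrgn* was at 1485, 1829.7 and 1590.2 CPM in WT and 1902, 1617 and 1724 in *Snx14*-KO cortices, and *Camk2a* at 3454, 3688 and 3437 and 3589, 2859 and 3542. *Camk2n1* was at 3092, 3568 and 3438 in WT and 3259, 2397 and 3261 in *Snx14*-KO cortices. The values of *Hpca* were 541, 645 and 543 and 592, 459 and 479, and those of *Itpka* 169, 183 and 153 and 174, 147 and 205 CPM. The layer-defining factors *Tbr1*, *Fezf2*, *Rorb* and *Tle4* had log2 fold changes of -0.017, 0.14, 0.039 and -0.11, with 95% intervals of -0.17 to 0.13, -0.075 to 0.36, -0.22 to 0.30 and -0.28 to 0.056. The layer 6 and 6b markers *Ntsr1*, *Cplx3*, *Nxph3* and *Ccn2* had 0.13, -0.02, -0.10 and 0.12.

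A second list of 36 excitatory and layer genes outside the set gave 19 positive and 17 negative log2 fold changes in cortex, a median of 0.016, 0 called by edgeR or DESeq2, and 2 in each direction at an unadjusted p under 0.05 by edgeR. Of all genes tested by edgeR, 2.24% were higher and 2.26% lower at that limit. The largest positive values were 0.27 for the layer 6 gene *Rprm*, 0.27 for the semaphorin receptor *Plxnd1* and 0.18 for *Otof*. The largest negative ones were -0.40 for *Nr4a2*, an activity-induced factor of layer 6b, -0.38 for *Mdga1* and -0.30 for the activity-induced neurotrophin *Bdnf*. For comparison, 12 inhibitory neuron genes had a median of 0.0033 and 8 general neuron genes one of 0.034 in the same comparison.

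In cerebellum, 31 of the members had enough counts to be tested, and 0 were called by edgeR, which called 0.00549% of all 18201 genes. Of the 31, 22 had a positive log2 fold change in *Snx14*-KO cerebella and 9 a negative one, with a median of 0.21 against -0.00062 over all genes. At an unadjusted p under 0.05 there were 13 members, all higher in *Snx14*-KO, while 8.15% of all genes met that limit and 5.78% were higher. The groups did not overlap for 8 members, all higher in *Snx14*-KO, against 6.36% of all genes. DESeq2 called 5 members as higher (*Nrgn*, *Ankrd63*, *Ccn2*, *Bcl11b* and *Fam19a1*), where it called 0.846% of its 19867 genes as higher. *Fezf2*, *Crym*, *Ntsr1*, *Ankrd63* and *Rspo1*, besides *S100g*, were too low for the edgeR test.

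*Snx14*-KO cerebella 1 and 3 were high for many of these members, and *Snx14*-KO cerebellum 2 was closer to the WT cerebella. In the same 2 libraries the summed level of 9 cerebellar granule cell genes was the lowest, at 2704 and 2640 CPM against 3169 to 3701 in the other 4 cerebella. Of these 9 genes, 8 had a negative log2 fold change, 5 of them at an unadjusted p under 0.05, and 0 were called by edgeR and 1 by DESeq2. Of all 18201 genes tested by edgeR, 432 were lower at that limit, and DESeq2 called 11 of its 19867 genes as lower. In replicate 2 alone against WT, 6 of the 9 granule cell genes were negative. Of 12 inhibitory neuron genes, *Sst*, the somatostatin gene, was at 34.3 and 35.7 CPM in *Snx14*-KO cerebella 1 and 3 against at most 3.20 in the other 4, and *Vip*, the vasoactive intestinal peptide gene, at 3.01 and 3.03 against at most 0.44. DESeq2 called both as higher and no other gene of the list, where it called 0.846% of all its genes as higher, and edgeR called 0. The summed level of the list was 2374 and 1977 CPM in these 2 libraries against 2252 to 2380.3 in the other 4. That sum is mostly *Gad1*, *Pvalb*, *Gad2* and *Slc32a1*, each at 194 CPM or more in every cerebellum, so it says little about *Sst* and *Vip*. The part of the granule cell and inhibitory neuron genes in the differences of the set was not tested. With replicate 2 as the only *Snx14*-KO library, the median log2 fold change of the 31 members was 0.067, and 11 of the 31 values had the other sign than with all libraries. Without replicate 2 in their place, edgeR called 8 members as higher, where it called 1.31% of all genes as higher. For 12 of the 31 members both libraries lay above the other 4, which was so for 10.1% of all genes tested. *Nrgn* (ENSMUSG00000053310.11, chromosome 9 from 37544492 to 37552904) was at 6.17, 4.34 and 1.97 CPM in WT and 122, 9.15 and 117 in *Snx14*-KO cerebella 1, 2 and 3. The log2 fold change was 4.33 (SE 0.850, adjusted p = 0.178 by edgeR, 0.00572 by DESeq2), and it was 1.15 without *Snx14*-KO replicates 1 and 3. *Rasgrf2* was at 6.001, 4.92 and 4.04 CPM in WT and 26.9, 5.51 and 31.0 in *Snx14*-KO cerebella, with a log2 fold change of 2.10 (SE 0.518, adjusted p = 0.261 by edgeR) and 0.15 without both libraries.

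The same order held for 3 layer 5 genes or kinases of the set. *Bcl11b* was at 1.39, 1.74 and 1.92 CPM in WT and 7.56, 1.60 and 6.11 in *Snx14*-KO cerebella (log2 fold change 1.61, SE 0.485, adjusted p = 0.383 by edgeR, 0.0353 by DESeq2). *Fam19a1*, a secreted chemokine-like protein, was at 1.00, 0.521 and 0.958 and 5.64, 0.772 and 5.30 CPM (2.24, SE 0.641, adjusted p = 0.358 by edgeR, 0.0127 by DESeq2). *Ptk2b* was at 3.33, 3.82 and 5.80 and 15.1, 4.58 and 16.3 CPM (1.48, SE 0.427, adjusted p = 0.36 by edgeR). In each, *Snx14*-KO cerebella 1 and 3 lay above all others and replicate 2 lay inside the WT range, and without both libraries the log2 fold changes were -0.068, -0.10 and 0.084.

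*Ankrd63* had 1 read pair in each WT cerebellum and 60, 6 and 63 in *Snx14*-KO cerebella, a ratio of 40.4 (95% interval 13.5 to 198.5, exact, counting error only) by the summed counts scaled for library size. Replicate 2 alone against the WT cerebella gave 5.96 (95% interval 1.27 to 36.9). Here replicate 2, at 0.331 CPM, also lay above the WT values of 0.0532 to 0.0579, but far under replicates 1 and 3. *Cdh13*, a GPI-anchored cadherin, was at 10.7, 10.1 and 7.56 CPM in WT and 19.6, 8.99 and 19.6 in *Snx14*-KO cerebella. *Mef2c* was at 38.5, 39.7 and 37.9 and 57.0, 40.4 and 62.7 CPM. Their log2 fold changes were 0.78 and 0.48, and -0.061 and 0.067 without both libraries.

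The remaining members with an unadjusted p under 0.05 had smaller differences or few counts. *Camk2a* was at 136, 143 and 135 CPM in WT and 206, 136 and 184 in *Snx14*-KO cerebella (log2 fold change 0.35, and -0.018 without replicates 1 and 3). *Camk2n1* was at 366, 386 and 387 and 472, 399 and 496 CPM (0.27, and 0.075 without both), with all *Snx14*-KO values above the WT values. *Arpp21*, a cAMP-regulated phosphoprotein that binds RNA, was at 58.8, 51.7 and 49.3 and 67.5, 56.2 and 62.6 CPM (0.23, and 0.085 without both), with *Snx14*-KO replicate 2 inside the WT range. *Nptx2* was at 2.56, 2.03 and 1.12 and 4.11, 3.20 and 4.87 CPM (1.11, and 0.76 without both), and the somatostatin receptor *Sstr2* at 0.222, 0.637 and 0.585 and 1.15, 0.937 and 1.35 CPM (1.25, and 0.96 without both). For *Nptx2* and *Sstr2* all 3 *Snx14*-KO values exceeded the WT values, replicate 2 by the least.

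*Ccn2* had another order, with *Snx14*-KO cerebellum 2 the highest. It was at 6.72, 9.26 and 5.21 CPM in WT and 11.3, 21.7 and 18.3 in *Snx14*-KO cerebella, with a log2 fold change of 1.29 (SE 0.269, adjusted p = 0.194 by edgeR, 0.000151 by DESeq2) and 1.63 without replicates 1 and 3. *Ccn2* is also made by fibroblasts and vessels. The summed level of 10 meningeal fibroblast genes was 168 to 330 CPM in the WT and 447 to 465 CPM in the *Snx14*-KO cerebella, and all 10 had a positive log2 fold change (median 1.08). Their part in the *Ccn2* difference was not tested.

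**Figure D5:**
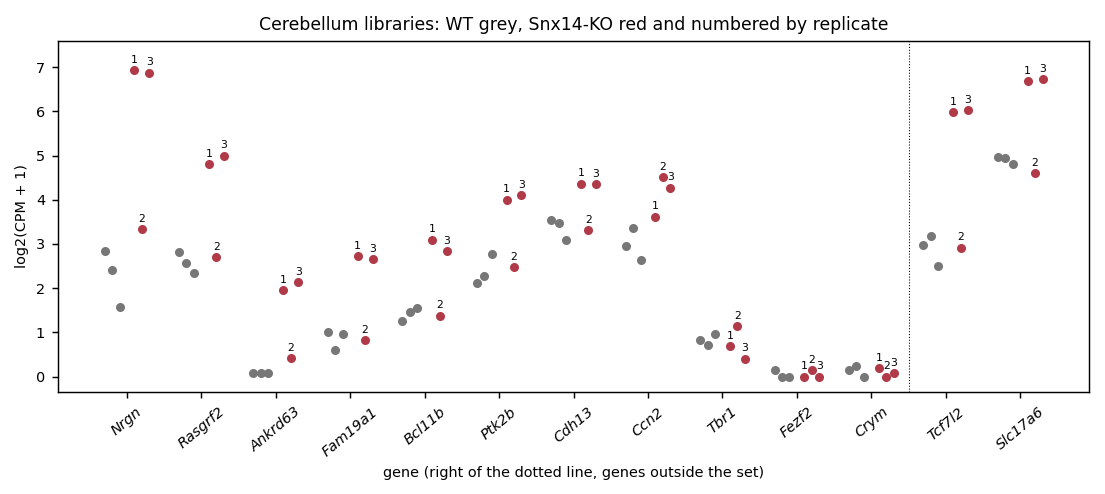
Level as log2(CPM + 1) of 11 members and, right of the dotted line, of *Tcf7l2* and *Slc17a6* in the WT (grey) and *Snx14*-KO (red, numbered) cerebella, each point 1 mouse. *Snx14*-KO cerebella 1 and 3 stand above the rest from *Nrgn* to *Cdh13* and for *Tcf7l2* and *Slc17a6*, while *Tbr1*, *Fezf2* and *Crym* are near 0 in all 6 cerebella and *Ccn2* is highest in replicate 2.

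Some members with a very low level in WT cerebella did not follow *Nrgn*, unlike *Ankrd63*. *Tbr1* was at 0.778, 0.637 and 0.958 CPM in WT and 0.622, 1.21 and 0.325 in *Snx14*-KO cerebella, and *Fezf2*, *Crym* and *Ntsr1* did not exceed 0.111, 0.174 and 0.160 CPM in any cerebellum. The excess of *Snx14*-KO cerebella 1 and 3 over the WT cerebella was unequal when set against the WT cortex level of the same gene. It was 7.19% and 6.89% of that level for *Nrgn*, 12.9% and 15.3% for *Rasgrf2*, 7.19% and 5.42% for *Bcl11b*, 10.3% and 9.54% for *Fam19a1*, 12.3% and 14.6% for *Ankrd63*, 3.01% and 3.35% for *Ptk2b* and 13.8% and 13.7% for *Cdh13*. It was 1.91% and 1.29% for *Camk2a* and -0.10% and -0.27% for *Tbr1*. The shares of these 9 genes, chosen from those described here, thus ran from -0.27% to 15.3%. The part of the thalamus and midbrain genes that were high in the same libraries in the cerebellar differences of the set was not tested.

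Among the other members that cerebellum expresses, *Cux1*, *Cux2*, *Rorb*, *Tle4* and *Pcdh20* had log2 fold changes of -0.06, -0.017, 0.0021, 0.024 and 0.069 in *Snx14*-KO cerebella, and *Hpca* and *Itpka* had 0.10 and -0.23. In replicate 2 alone against WT the first 5 had -0.082, -0.012, -0.18, -0.081 and 0.19, and *Hpca* and *Itpka* had 0.12 and 0.0023, so that *Rorb*, *Tle4* and *Itpka* changed sign. *Neurod6*, a basic helix-loop-helix factor of pyramidal neurons, was at 7.71 to 8.39 CPM in WT and 7.79 to 10.6 in *Snx14*-KO cerebella. Of the second list of excitatory and layer genes, 30 were tested in cerebellum, with 19 positive and 11 negative log2 fold changes, a median of 0.053 and 0 called by edgeR. At an unadjusted p under 0.05 by edgeR there were 8 higher and 2 lower, where 5.78% of all genes were higher and 8.15% met that limit in either direction. The largest were *Hs3st4* (2.10), *Tshz2* (1.33) and *Foxp2* (0.99), with *Neurod2* (-0.37), *Mdga1* (-0.37) and *Etv1* (-0.31) at the other end. *Hs3st4* was at 1.17, 0.868 and 1.86 CPM in WT and 7.32, 1.38 and 8.01 in *Snx14*-KO cerebella, again with replicates 1 and 3 high, and without them its log2 fold change was 0.083. DESeq2 called *Lhx2*, *Hs3st4*, *Tshz2*, *Foxp2* and *Unc5d* as higher, where it called 0.846% of all its genes as higher. In replicate 2 alone against WT, the median of 32 genes of the list was 0.011.

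An interaction term in a fit of all 12 libraries tested whether the effect of genotype on a member was unequal in cortex and cerebellum. This fit takes the libraries as independent, although cortex and cerebellum of 1 number were taken as 1 mouse. With the mouse as a block, 0 members passed as well, 14 had an unadjusted p under 0.05 and the median was -0.22. By edgeR, 0 of 36 members passed an adjusted p of 0.05, as did 0.00% of all 19380 genes, and the median difference (cortex effect minus cerebellum effect, log2) was -0.22 against 0.0043 over all genes. At an unadjusted p under 0.05 there were 13 negative members and 1 positive one, *Cux2* (0.26, SE 0.117), where 5.68% of all genes met that limit, 3.97% as negative and 1.71% as positive. DESeq2 called *Nrgn*, *Ankrd63* and *Nptx2*, all as negative, where it called 0.183% of its genes as negative. The edgeR estimates were -4.21 (SE 0.868) for *Nrgn* and -1.52 (SE 0.315) for *Nptx2*. Without *Snx14*-KO mice 1 and 3 they were -1.16 and -0.96, and without *Snx14*-KO mouse 2 the edgeR test called 9 members, all as negative, where it called 1.26% of all genes in either direction. None of these 3 members passed the thresholds in cortex, where *Nrgn* had a log2 fold change of 0.10, *Ankrd63* of -0.10 and *Nptx2* of -0.42.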

How the data were processed

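RNA was extracted from frozen, dissected cortex and cerebellum, and libraries were made with an NEBNext Ultra RNA kit. After trimming, the authors aligned reads to the GRCm38 genome by STAR. Gene counts of read pairs came from featureCounts (Subread 2.0.1 per the submitters' processing notes), without regard to strand and with a pair over several genes counted for each. The values are the read counts per gene as deposited by the authors, with no normalization. Features other than the 55536 annotated genes held 0.0506% to 0.0632% of the counts and were left out.

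Counts were tested with edgeR 4.0.16 (R 4.3.3) by the quasi-likelihood test after TMM scaling and filterByExpr, on all genes, with Benjamini-Hochberg adjustment. A gene was called when its adjusted p was under 0.05 and its log2 fold change lay beyond 0.5 in either direction (no fold limit for the interaction). DESeq2 1.42.0, the tool of the study, was run as an alternative on all genes with its own filter. Intervals of single ratios are exact and cover counting error only. Each test was also run on simulated counts, whose results are not given here. No libraries were identical. The 3 libraries of a group are 3 mice.

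The members and lists were chosen with earlier results of these data known. Values in every library are given for members called or with an unadjusted p under 0.05 in either tissue or called in the interaction, for the 3 largest and 3 smallest log2 fold changes in cortex, the 5 highest levels per length and the 5 largest and 5 smallest ratios of the tissues. Alternatives were DESeq2, RLE scaling, no filter, all 12 libraries in 1 fit, each library left out and the replicate number as a block. The titles number the mice, so a cortex and a cerebellum of 1 number and genotype were taken as the same mouse. Their deviations from the group means correlated with r = 0.111, 0.159 and 0.073 in WT and 0.338, 0.018 and 0.102 in *Snx14*-KO mice over 19380 genes. Pairs of unlike number had r from -0.129 to -0.019 in WT and from -0.265 to 0.155 in *Snx14*-KO mice. The value of 0.155, for *Snx14*-KO cortex 2 with cerebellum 3, exceeded those of *Snx14*-KO pairs 2 and 3, so these values do not settle the pairing of the *Snx14*-KO mice. Leaving out *Snx14*-KO replicates 1 and 3 together was added after seeing the data. Some genes of the second list are not reported singly here.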

Additional observations from a re-analysis of the deposited data

Results flagged for a closer look

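By DESeq2's test of the interaction, the genotype difference was more positive in cerebellum than in cortex for 3 members. For *Ankrd63* and *Nptx2* the log2 fold change was negative in cortex and positive in cerebellum. The log2 difference of the effects (cortex minus cerebellum) was -4.21 for *Nrgn* (adjusted p = 0.0405 by DESeq2), -5.41 for *Ankrd63* (adjusted p = 0.000118) and -1.52 for *Nptx2* (adjusted p = 0.000457). None of them passed in edgeR's quasi-likelihood test, with adjusted p of 0.190, 0.167 and 0.190. For *Ankrd63* the fitted value rests on 1 read pair in each WT cerebellum, so its size is not a bound. In cerebellum, *Nrgn* and *Ankrd63* were high in *Snx14*-KO replicates 1 and 3, and *Nptx2* was at 4.11, 3.20 and 4.87 CPM in *Snx14*-KO against 2.56, 2.03 and 1.12 CPM in WT mice. Without *Snx14*-KO mice 1 and 3 the edgeR values were -1.16, -2.67 and -0.96, from a fit with 1 *Snx14*-KO library per tissue, which is assumed to vary like the other groups. The high values of *Tcf7l2*, *Slc17a6* and *Tfap2d* in the same 2 cerebella were not tested as a cause.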

How the results depend on the processing

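With 3 mice per group, 1 library can decide a count of calls. In cortex, 0 members were called under every alternative run. DESeq2 called 2 genes as higher and 5 as lower there, testing all genes with a count gave 85 and 64, all 12 libraries in 1 fit gave 2 lower, and leaving out 1 library gave 0 higher and 1 to 2 lower. The cortex median of the members ran from -0.033 to 0.0059 over these.

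In cerebellum, DESeq2 called 168 genes as higher, 11 as lower and 5 members. All genes with a count gave 329, 18 and 8, and all 12 libraries in 1 fit gave 43, 2 and 3. Leaving out 1 library gave 0 to 244 higher, 1 to 10 lower and 0 to 8 members, the highest in each case without *Snx14*-KO replicate 2, while without WT replicate 2 there were 9 higher genes and without WT replicate 3 there was 1. The members' median ran from 0.17 to 0.24. Without *Snx14*-KO replicates 1 and 3, which leaves 1 library that is assumed to vary like the others, it was 0.067, and 11 of 31 members changed sign, among them *Camk2a* (-0.018), *Cdh13* (-0.061), *Bcl11b* (-0.068) and *Fam19a1* (-0.096).

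Between WT tissues, *Cux1* changed sign to 0.0058 by DESeq2 and 0.0012 with RLE scaling and ran from -0.057 to 0.030 with 1 library left out, and the members' median was 3.40 over all genes with a count. Between *Snx14*-KO tissues the median was 3.23 with the replicate block, 2.84 to 3.31 with 1 library left out and 3.51 without replicates 1 and 3.

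For the interaction, DESeq2 called 1 gene as higher, 35 as lower and 3 members, and all genes with a count gave 45, 373 and 12. Leaving out 1 mouse gave 0 to 7 higher, 0 to 242 lower and 0 to 9 members, with a median of -0.32 to -0.22. Without *Snx14*-KO mice 1 and 3 there were 3 higher genes and a median of -0.15. WT and *Snx14*-KO mice share only a number, with deviations of same-numbered pairs correlated between -0.091 and 0.081, and the replicate block changed no call of a member (0 called in cortex, in cerebellum and, with the mouse as the block, in the interaction, medians 0.0022, 0.20 and -0.22). The cause of these changes was not tested.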

Other observations

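Some genes outside the set that forebrain neurons also use were high in *Snx14*-KO cerebella 1 and 3, and the 3 given here were chosen after their values were seen. *Tac1*, the substance P precursor, was at 8.13 and 8.71 CPM there against at most 1.38 in the other 4 cerebella, the dopamine receptor gene *Drd2* at 6.26 and 6.22 against at most 1.11, and *Lhx2*, a LIM homeobox factor, at 2.63 and 3.90 against at most 0.17. The summed level of the 10 striatum genes, which hold *Tac1* and *Drd2*, did not follow, at 273 and 211 CPM in these 2 cerebella against 266 to 299 in the other 4. That sum is mostly *Ppp1r1b*, at 189 and 133 CPM against 203 to 213. *Snx14*-KO cerebellum 3 also had the highest summed level of 9 microglia genes, 539 CPM against 194 to 245 in the other 5 cerebella. In cortex, WT replicate 1 had the highest summed level of 8 hippocampus genes, 72.6 CPM against 26.7 to 41.6 in the other 5 cortices.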
